A study of Homo sapiens with 12 samples.

Results

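Expression of 36 genes for lysosomal enzymes and membrane proteins was measured in 2 human lines labelled erythroleukemia, with and without a histone deacetylase inhibitor. The genes were taken from a list of gene names, and all 36 had a row of a single gene symbol among the 18417 genes of the array so named. They comprised 5 proteins of the lysosomal membrane, 10 glycosidases, 6 lipid-degrading enzymes or activator proteins, 4 sulfatases, 7 cysteine cathepsins, 3 aspartic or serine peptidases and 1 acid phosphatase. The drug was ITF2357 (givinostat), which blocks histone deacetylases and so leaves histones more acetylated. The groups were HEL cells with 250 nM ITF2357 for 6 h, HEL cells left without it for the same 6 h, UKE1 cells with 250 nM ITF2357 for 6 h, and UKE1 cells left without it for 6 h. All 4 groups carried the JAK2V617F mutation, which keeps the kinase JAK2 active without cytokine, and each group held 3 arrays, which the series calls independent triplicates. Nothing further says how the cultures were kept apart, so every p-value below reflects only how these 12 samples scatter. HEL medium held 10% FCS, and UKE1 medium held 10% FCS with 10% horse serum, 10 µM hydrocortisone and HEPES buffer, so line and medium cannot be told apart. Each line is a single established line, and the RNA is that of the bulk culture, in which fewer cells of a type and less RNA per cell cannot be told apart.

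Lysosomes are acidic organelles in which hydrolases break down proteins, glycans, lipids and nucleic acids taken up from outside or delivered by autophagy. Most of the soluble enzymes are tagged with mannose 6-phosphate in the Golgi and carried to the lysosome by receptors, a proton pump keeps the interior acidic, and heavily glycosylated membrane proteins line its wall. Loss of single enzymes causes the lysosomal storage diseases, in which the enzyme's substrate builds up. Many of these genes are known targets of TFEB, TFE3 and MITF, factors that bind an E-box sequence in promoters and that mTORC1 holds in the cytoplasm when nutrients are plentiful.

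The arrays of a group correlated at 0.994 to 0.996 over all genes, those of a line across treatments at 0.981 to 0.985, and those of different lines at 0.928 to 0.943. All levels below are log2 values after the authors' normalization, a log2 change is ITF2357 minus untreated unless a line difference is named, and its error is the standard error of the limma fit (3 arrays a group). A gene is said to have risen, fallen or changed where the adjusted p from limma was under 0.05. Of the marker genes checked, 6 of 7 erythroid ones were lower in untreated UKE1 than in untreated HEL cells, with a mean level per array of 6.96 to 7.02 in UKE1 and 8.58 to 8.61 in HEL. Over all genes 34.4% were lower and 33.3% higher in that comparison. The erythroid factor GATA1 had 7.46 in untreated UKE1 and 10.28 in untreated HEL cells, and ALAS2, the erythroid enzyme of heme synthesis, had 5.96 and 9.48 in the same order. AHSP, a chaperone of alpha-globin, stood at 3.97 in untreated UKE1 and 3.74 in untreated HEL cells, under the lowest decile of all genes on an array (4.15 to 4.27). Both lines are labelled erythroleukemia, so that label had less support from these markers in UKE1.

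Under ITF2357 the lysosomal genes moved mostly upward in both lines, with a minority moving down. In HEL, 18 of the 36 rose and 6 fell, where 42.4% of all genes changed (22.6% rose and 19.9% fell). In UKE1, 20 rose and 8 fell, where 44.3% of all genes changed (22% rose and 22.3% fell). All genes include many of low level. With only the 9209 genes at or above the median level tested, 6377 changed in HEL and 6398 in UKE1, a larger share. All of the 36 but ARSA, CTSK, CTSL, GAA, IDUA and SGSH lay at that level, and 26 changed in HEL under this filter. In UKE1 25 to 28 of the 36 changed over the alternatives run. The median log2 change of the 36 genes was 0.22 in HEL and 0.20 in UKE1, beside -0.01 and 0.01 over all genes of the same lines. With a change of at least 1.5-fold as well, 7 rose and 1 fell in HEL (8.31% and 5.84% of all genes, 14.2% together), and 9 rose and 3 fell in UKE1 (7.21% and 7.87% of all genes, 15.1% together). The treated arrays lay wholly above the untreated ones for 22 of the genes in HEL and wholly below for 6 (25.3% and 23.7% of all genes, 49% together). The same held for 21 and 9 of them in UKE1 (27.2% and 26.7% of all genes, 53.9% together). FUCA1, NEU1, GM2A, GLA, LIPA and LAMP2 rose by at least 1.5-fold in both lines, and ARSB fell by at least 1.5-fold in both.

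**Figure D1:**
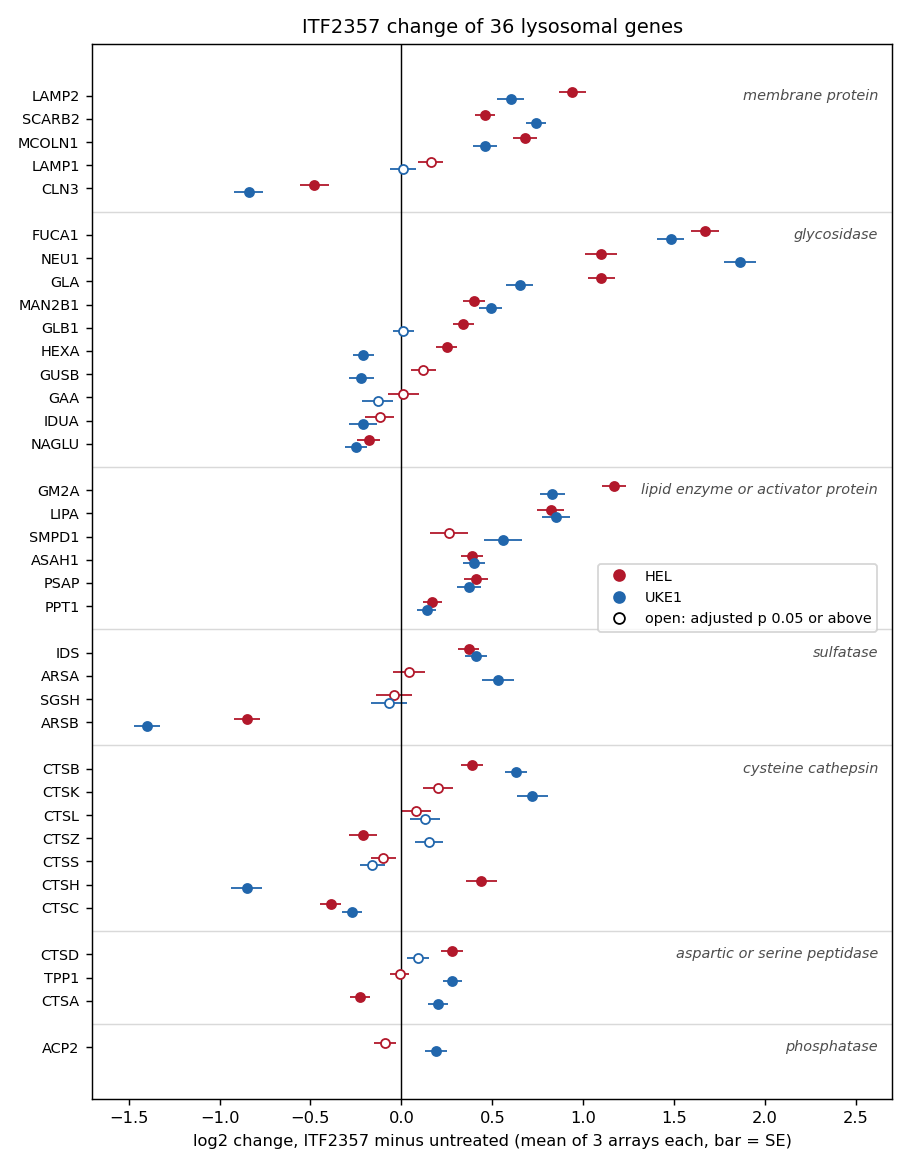
Log2 change with ITF2357 (x axis, ITF2357 minus untreated, bars are SE, 3 arrays a group) for each of the 36 genes, grouped by role, in HEL (red) and UKE1 (blue). Filled points passed an adjusted p of 0.05, and FUCA1 in HEL (1.67) and NEU1 in UKE1 (1.86) lie farthest right, with ARSB farthest left in both lines (-0.85 in HEL and -1.40 in UKE1).

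The promoters of 26 of the 36 genes were at hand from RefSeq (GRCh38.p14), each as the window from 250 bases before to 50 bases after a transcription start. They were searched for the E-box CACGTG, for the longer TCACGTGA that contains it, and for GTCACGTGAC, which contains both. Each of these reads the same on both strands, and each longer match is also counted under the shorter. CACGTG stood in 8 of the 26 (30.8%), against 8.77% of the 27305 genes with a window. TCACGTGA stood in 5 (19.2%, against 1.18% of genes) and GTCACGTGAC in GAA and MCOLN1 (7.69%, against 0.421%). Windows are shown for a gene that rose without an E-box (FUCA1), for 2 that rose with one (NEU1 and MCOLN1), for one that did not pass the test in either line (LAMP1), and for 2 that fell (CLN3 and ARSB). The windows are chr1:23868241-23868540 (minus strand) for FUCA1, chr6:31862772-31863071 (minus strand) for NEU1 and chr19:7522374-7522673 (plus strand) for MCOLN1. Those of the others are chr13:113296989-113297288 (plus strand) for LAMP1, chr16:28492025-28492324 (minus strand) for CLN3 and chr5:78985909-78986208 (minus strand) for ARSB. CLN3 and ARSB have 2 windows each in RefSeq, and the 1 printed was chosen because it holds CACGTG. A gene was counted as having a motif where any of its windows held it. Capitals mark CACGTG or the longest of the 3 motifs that holds it.
FUCA1: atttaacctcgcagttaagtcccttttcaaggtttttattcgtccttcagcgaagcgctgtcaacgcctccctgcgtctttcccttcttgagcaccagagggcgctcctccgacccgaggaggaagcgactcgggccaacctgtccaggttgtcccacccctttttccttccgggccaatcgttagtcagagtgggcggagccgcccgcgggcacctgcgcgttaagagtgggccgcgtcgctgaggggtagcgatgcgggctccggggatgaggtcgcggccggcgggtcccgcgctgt
NEU1: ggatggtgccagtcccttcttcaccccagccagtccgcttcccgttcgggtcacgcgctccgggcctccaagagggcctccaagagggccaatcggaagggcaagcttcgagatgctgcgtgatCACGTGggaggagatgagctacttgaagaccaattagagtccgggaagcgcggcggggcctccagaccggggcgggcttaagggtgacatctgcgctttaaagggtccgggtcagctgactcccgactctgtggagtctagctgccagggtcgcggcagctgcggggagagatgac
MCOLN1: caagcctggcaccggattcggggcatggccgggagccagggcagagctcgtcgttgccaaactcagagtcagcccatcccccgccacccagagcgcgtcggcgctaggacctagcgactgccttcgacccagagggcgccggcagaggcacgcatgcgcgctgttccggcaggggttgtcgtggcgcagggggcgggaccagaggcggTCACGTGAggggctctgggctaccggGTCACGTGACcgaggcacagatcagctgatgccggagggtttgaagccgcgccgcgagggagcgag
LAMP1: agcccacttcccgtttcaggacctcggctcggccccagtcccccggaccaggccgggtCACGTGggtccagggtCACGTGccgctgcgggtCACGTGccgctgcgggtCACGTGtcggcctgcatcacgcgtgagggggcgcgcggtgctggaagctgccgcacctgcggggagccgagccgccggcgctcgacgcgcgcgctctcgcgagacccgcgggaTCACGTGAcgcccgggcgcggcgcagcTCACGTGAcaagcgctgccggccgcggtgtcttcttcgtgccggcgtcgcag
CLN3: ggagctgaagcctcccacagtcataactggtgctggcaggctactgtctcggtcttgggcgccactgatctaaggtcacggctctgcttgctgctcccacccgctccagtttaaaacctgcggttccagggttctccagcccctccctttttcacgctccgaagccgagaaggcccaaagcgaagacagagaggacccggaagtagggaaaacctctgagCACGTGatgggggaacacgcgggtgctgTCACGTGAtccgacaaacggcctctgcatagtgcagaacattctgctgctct
ARSB: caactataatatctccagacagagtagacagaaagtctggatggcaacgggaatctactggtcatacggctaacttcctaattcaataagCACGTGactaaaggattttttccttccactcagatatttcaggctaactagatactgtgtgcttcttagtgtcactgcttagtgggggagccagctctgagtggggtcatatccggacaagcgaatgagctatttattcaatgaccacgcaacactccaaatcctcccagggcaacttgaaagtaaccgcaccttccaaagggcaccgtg

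Positions are those of the first base of CACGTG, also within a longer motif. In the NEU1 window it stood 126 bases before the start, in ARSB 160 bases before it, and in CLN3 30 and 1 bases before it. In MCOLN1 the CACGTG of the 8-base form stood 41 bases before the start and that of the 10-base form 14 bases before it. LAMP1 held 6 E-boxes, at 192, 176, 159, 142, 28 and 1 bases before its start. The other 3 genes with an E-box were GAA and CTSA, with 2 each, and CTSD, with 1. A 26-base stretch around 1 E-box of each is printed, at chr17:80101495-80101520 (plus strand) for GAA, chr20:45891300-45891325 (plus strand) for CTSA and chr11:1763959-1763984 (minus strand) for CTSD. GAA is shown for its 10-base form, and CTSA and CTSD because their calls differed between the lines.
GAA: gaggccgcGTCACGTGACccaccgcg
CTSA: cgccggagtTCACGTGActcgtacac
CTSD: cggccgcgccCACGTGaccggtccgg

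Of the 8 genes with CACGTG, 3 rose, 3 fell and 2 did not pass the test in HEL. In UKE1 3 of them rose, 2 fell and 3 did not pass. Among the 18 genes whose window lacked it, 10 rose, 2 fell and 6 did not pass in HEL, and 11 rose, 4 fell and 3 did not pass in UKE1. The 10 genes without a window here counted 5 risen and 1 fallen in HEL, and 6 risen and 2 fallen in UKE1. Genes with the motif therefore stood among those that rose, those that fell and those that did not pass in both lines. Over all genes 22.6% rose and 19.9% fell in HEL, and 22% rose and 22.3% fell in UKE1. A match of letters is a description of the window and not a measured binding site.

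Of the membrane proteins, 3 of 5 rose and 1 fell in each line (80% called, where 42.4% of all genes were in HEL and 44.3% in UKE1). LAMP2, a main glycoprotein of the lysosomal wall with a part in chaperone-mediated autophagy, read 10.64, 10.62 and 10.44 in treated HEL cells, against 9.64, 9.72 and 9.51 in untreated HEL cells. In UKE1 it read 10.75, 10.82 and 10.85 in treated UKE1 cells, against 10.23, 10.24 and 10.14 in untreated UKE1 cells. The treated arrays lay above all untreated ones in both lines, and the log2 change was 0.94 ± 0.0733 (1.92-fold, adjusted p = 2e-07) in HEL and 0.60 ± 0.0733 (1.52-fold, adjusted p = 1.08e-05) in UKE1. LAMP1, the related glycoprotein whose window holds 6 E-boxes, had 9.09 ± 0.0601 in treated and 8.93 ± 0.0651 in untreated HEL cells (SD, n = 3 arrays). In UKE1 it had 9.01 ± 0.118 in treated and 9.0 ± 0.0512 in untreated cells. Its change of 0.16 (adjusted p = 0.0845) in HEL and 0.01 (adjusted p = 0.909) in UKE1 did not pass the test.

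SCARB2 (LIMP-2), the membrane receptor that carries glucocerebrosidase to the lysosome, read 7.01, 7.09 and 7.09 in treated HEL cells, against 6.60, 6.64 and 6.57 in untreated HEL cells. It stood higher throughout in UKE1, with 9.26, 9.25 and 9.31 in treated UKE1 cells, against 8.55, 8.57 and 8.47 in untreated UKE1 cells. SCARB2 rose in both lines, with a log2 change of 0.46 ± 0.0565 (1.37-fold, adjusted p = 1.29e-05) in HEL and 0.74 ± 0.0565 (1.67-fold, adjusted p = 1.35e-07) in UKE1. MCOLN1, the calcium channel TRPML1 of the lysosomal membrane, read 8.62, 8.61 and 8.74 in treated HEL cells, against 7.92, 7.99 and 8.03 in untreated HEL cells. In UKE1 the values were 8.02, 8.18 and 8.08 in treated UKE1 cells, against 7.72, 7.58 and 7.62 in untreated UKE1 cells. The groups did not overlap in either line, and MCOLN1 rose by 0.68 ± 0.0678 (1.6-fold, adjusted p = 1.93e-06) in HEL and 0.46 ± 0.0678 (1.37-fold, adjusted p = 7.23e-05) in UKE1 on the log2 scale.

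CLN3, a multi-pass membrane protein whose loss causes juvenile neuronal ceroid lipofuscinosis, moved the other way and read 7.64, 7.62 and 7.77 in treated HEL cells, against 8.17, 8.16 and 8.14 in untreated HEL cells. In UKE1 CLN3 read 7.84, 7.92 and 7.62 in treated UKE1 cells, against 8.71, 8.54 and 8.64 in untreated UKE1 cells. Every treated array lay below every untreated one of its line, and the log2 change was -0.48 ± 0.0794 (1.4-fold lower, adjusted p = 0.000176) in HEL and -0.84 ± 0.0794 (1.79-fold lower, adjusted p = 1.06e-06) in UKE1. MCOLN1 and CLN3 thus moved in opposite directions, and both windows hold the 8-base motif printed above.

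**Figure D2:**
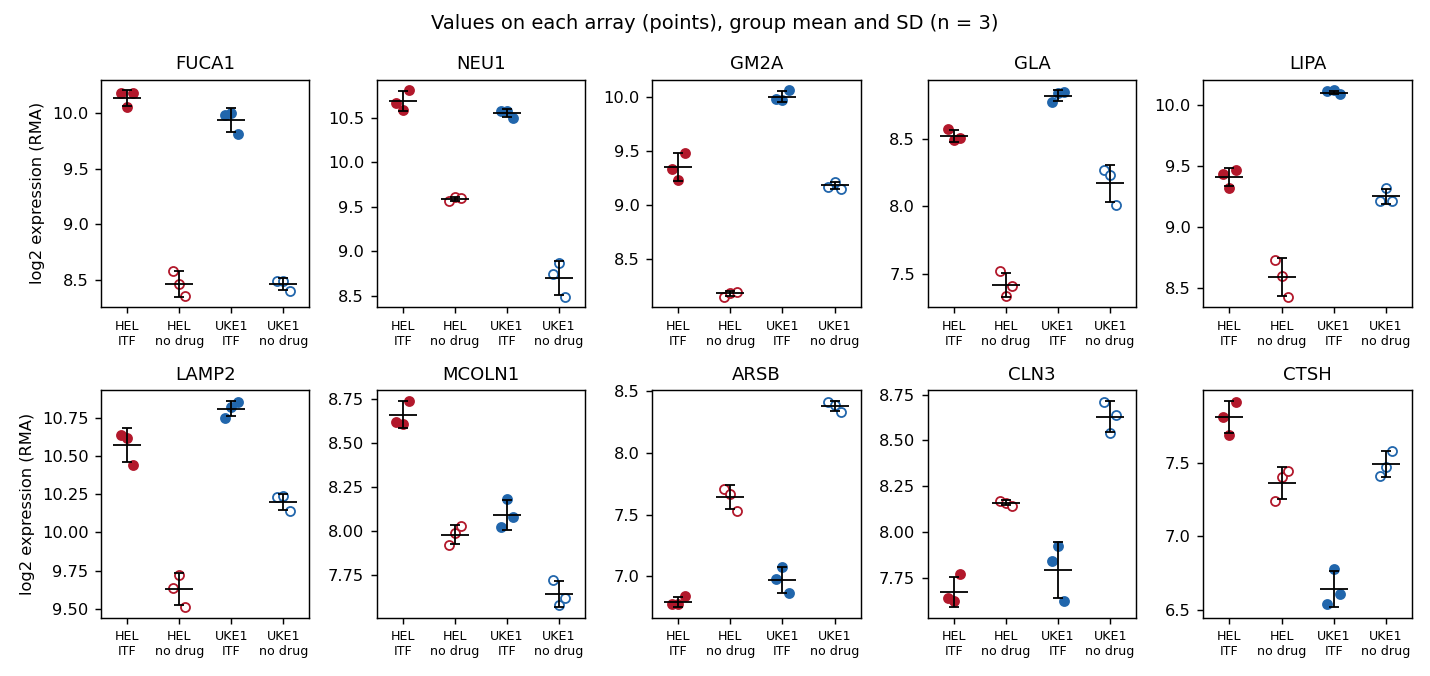
Log2 expression (y axis, RMA) of 10 of the genes on each array, in the order HEL with ITF2357, HEL without, UKE1 with ITF2357 and UKE1 without, where black bars are the group mean and SD (n = 3 arrays) and the y axes differ between panels and do not start at 0. The 10 genes were picked for large changes, and treated and untreated points do not overlap within a line in any panel. Over all genes the groups did not overlap for 49% in HEL and 53.9% in UKE1. CTSH is the panel in which the direction turns between lines (log2 change 0.44 in HEL and -0.85 in UKE1).

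Of the glycosidases, 6 of 10 rose and 1 fell in HEL (70% called, against 42.4% of all genes), and 4 rose and 4 fell in UKE1 (80%, against 44.3%). FUCA1, the alpha-L-fucosidase that removes fucose from glycoproteins and glycolipids, read 10.18, 10.06 and 10.18 in treated HEL cells, against 8.58, 8.46 and 8.35 in untreated HEL cells. In UKE1 it read 9.99, 10.00 and 9.81 in treated UKE1 cells, against 8.49, 8.49 and 8.40 in untreated UKE1 cells. The untreated lines started at the same mean level of 8.46, and the treated means were 10.14 in HEL and 9.94 in UKE1. The log2 change was 1.67 ± 0.0755 (3.19-fold, adjusted p = 2.26e-09) in HEL and 1.48 ± 0.0755 (2.78-fold, adjusted p = 4.41e-09) in UKE1, and FUCA1 has no E-box in the window shown.

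NEU1, the sialidase that trims sialic acid from glycoconjugates, read 10.67, 10.59 and 10.81 in treated HEL cells, against 9.57, 9.61 and 9.60 in untreated HEL cells. The UKE1 values were 10.58, 10.58 and 10.50 in treated UKE1 cells, against 8.74, 8.87 and 8.49 in untreated UKE1 cells. Untreated UKE1 arrays were the lowest of the 4 groups and treated arrays of both lines were close together, with a log2 change of 1.10 ± 0.0881 (2.14-fold, adjusted p = 2.56e-07) in HEL and 1.86 ± 0.0881 (3.62-fold, adjusted p = 2.43e-09) in UKE1. GLA, the alpha-galactosidase deficient in Fabry disease, read 8.57, 8.49 and 8.51 in treated HEL cells, against 7.52, 7.34 and 7.41 in untreated HEL cells. In UKE1 GLA read 8.77, 8.84 and 8.85 in treated UKE1 cells, against 8.27, 8.23 and 8.01 in untreated UKE1 cells. It rose without overlap in both lines, by 1.10 ± 0.0746 (2.14-fold, adjusted p = 5.75e-08) in HEL and 0.65 ± 0.0746 (1.57-fold, adjusted p = 6.45e-06) in UKE1 on the log2 scale.

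MAN2B1, the lysosomal alpha-mannosidase, rose in both lines by log2 values of 0.40 (adjusted p = 9.9e-05) in HEL and 0.49 (adjusted p = 1.25e-05) in UKE1. NAGLU, which cleaves N-acetylglucosamine from heparan sulfate, fell in both, with -0.18 (adjusted p = 0.0319) in HEL and -0.25 (adjusted p = 0.00461) in UKE1. GLB1, the beta-galactosidase used to stain senescent cells, read 9.99, 10.00 and 9.93 in treated HEL cells, against 9.70, 9.64 and 9.58 in untreated HEL cells. In UKE1 its values were 8.93, 8.95 and 8.87 in treated UKE1 cells, against 8.89, 8.93 and 8.91 in untreated UKE1 cells. GLB1 therefore rose in HEL, with a change of 0.34 (adjusted p = 0.000232), while the UKE1 arrays overlapped, with 0.01 (adjusted p = 0.959).

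HEXA, the alpha subunit of the hexosaminidase deficient in Tay-Sachs disease, read 8.44, 8.35 and 8.49 in treated HEL cells, against 8.20, 8.15 and 8.18 in untreated HEL cells. In UKE1 HEXA read 8.71, 8.68 and 8.70 in treated UKE1 cells, against 8.95, 8.86 and 8.93 in untreated UKE1 cells. It rose in HEL and fell in UKE1, with log2 changes of 0.25 (adjusted p = 0.00279) in HEL and -0.21 (adjusted p = 0.00733) in UKE1. GUSB, the beta-glucuronidase, had a change of 0.12 (adjusted p = 0.205) in HEL and -0.22 (adjusted p = 0.019) in UKE1, and IDUA, the iduronidase of dermatan and heparan sulfate breakdown, had -0.12 (adjusted p = 0.239) in HEL and -0.21 (adjusted p = 0.0419) in UKE1. GUSB and IDUA thus fell in UKE1 and did not pass the test in HEL. GAA, the acid alpha-glucosidase that degrades glycogen, passed in neither line, with 0.01 (adjusted p = 0.969) in HEL and -0.13 (adjusted p = 0.26) in UKE1.

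Of the lipid enzymes and activator proteins, 5 of 6 rose in HEL, all 6 rose in UKE1, and none fell in either line. Over all genes 22.6% rose in HEL and 22% in UKE1. GM2A, the activator that presents ganglioside GM2 to hexosaminidase, read 9.33, 9.23 and 9.48 in treated HEL cells, against 8.15, 8.18 and 8.19 in untreated HEL cells. In UKE1 GM2A read 9.98, 9.97 and 10.06 in treated UKE1 cells, against 9.16, 9.21 and 9.15 in untreated UKE1 cells. It rose without overlap in both lines, by 1.17 ± 0.0671 (2.25-fold, adjusted p = 1.43e-08) in HEL and 0.83 ± 0.0671 (1.77-fold, adjusted p = 2.51e-07) in UKE1 on the log2 scale. LIPA, the acid lipase that frees cholesterol and fatty acids from lipoproteins, read 9.43, 9.32 and 9.47 in treated HEL cells, against 8.73, 8.60 and 8.43 in untreated HEL cells. The corresponding UKE1 values were 10.11, 10.12 and 10.09 in treated UKE1 cells, against 9.21, 9.32 and 9.21 in untreated UKE1 cells. It rose without overlap in both lines, with a log2 change of 0.82 ± 0.0762 (1.76-fold, adjusted p = 9.51e-07) in HEL and 0.85 ± 0.0762 (1.81-fold, adjusted p = 5.9e-07) in UKE1.

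ASAH1, the acid ceramidase, which turns ceramide into sphingosine, read 12.31, 12.33 and 12.19 in treated HEL cells, against 11.93, 11.91 and 11.81 in untreated HEL cells. In UKE1 ASAH1 read 11.28, 11.31 and 11.26 in treated UKE1 cells, against 10.87, 10.91 and 10.89 in untreated UKE1 cells. The log2 changes were 0.39 (adjusted p = 8.94e-05) in HEL and 0.40 (adjusted p = 8.12e-05) in UKE1, without overlap. PSAP, the precursor of the saposins that assist sphingolipid breakdown, changed by 0.41 (adjusted p = 0.000137) in HEL and 0.37 (adjusted p = 0.000285) in UKE1. PPT1, a thioesterase that removes palmitate from proteins, changed by 0.17 (adjusted p = 0.0192) in HEL and 0.14 (adjusted p = 0.0403) in UKE1. Both PPT1 calls were lost under some of the alternatives given below. SMPD1, the acid sphingomyelinase, rose in UKE1 and did not pass in HEL, with 0.26 (adjusted p = 0.0594) in HEL and 0.56 (adjusted p = 0.000496) in UKE1.

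Of the sulfatases, 1 of 4 rose and 1 fell in HEL (50% called, near the 42.4% of all genes), and 2 rose and 1 fell in UKE1 (75%, against 44.3%). ARSB, which removes sulfate from dermatan and chondroitin sulfate, had the largest fall of the 36 genes in both lines and read 6.77, 6.77 and 6.84 in treated HEL cells, against 7.71, 7.67 and 7.53 in untreated HEL cells. In UKE1 it read 6.98, 7.07 and 6.86 in treated UKE1 cells, against 8.41, 8.39 and 8.33 in untreated UKE1 cells. The treated means were 6.79 in HEL and 6.97 in UKE1, and the log2 change was -0.85 ± 0.0701 (1.8-fold lower, adjusted p = 3.39e-07) in HEL and -1.40 ± 0.0701 (2.65-fold lower, adjusted p = 3.69e-09) in UKE1. ARSA, the sulfatase deficient in metachromatic leukodystrophy, read 6.73, 6.58 and 6.75 in treated UKE1 cells, against 6.28, 5.96 and 6.22 in untreated UKE1 cells. In HEL it read 5.74, 5.74 and 5.95 in treated HEL cells, against 5.77, 5.79 and 5.77 in untreated HEL cells. ARSA rose in UKE1 and the HEL arrays overlapped, with changes of 0.04 (adjusted p = 0.797) in HEL and 0.53 (adjusted p = 0.000167) in UKE1. IDS, the iduronate sulfatase deficient in Hunter syndrome, rose in both lines, by 0.37 (adjusted p = 0.000147) in HEL and 0.41 (adjusted p = 4.85e-05) in UKE1. SGSH, the heparan N-sulfatase, stood at 5.14 ± 0.0861 in treated and 5.18 ± 0.0525 in untreated HEL cells, near the lower quartile of all genes on an array (5.34 to 5.44). It did not pass in either line, with -0.04 (adjusted p = 0.796) in HEL and -0.07 (adjusted p = 0.652) in UKE1.

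The cysteine cathepsins, the main lysosomal proteases, showed no common direction, with 2 of 7 risen and 2 fallen in each line. These calls made 57.1% of them in each line, where 42.4% of all genes were called in HEL and 44.3% in UKE1. CTSB, a cathepsin that cuts inside chains and from their ends, read 10.11, 9.92 and 10.09 in treated HEL cells, against 9.63, 9.62 and 9.68 in untreated HEL cells. In UKE1 CTSB read 10.00, 10.06 and 10.05 in treated UKE1 cells, against 9.38, 9.43 and 9.41 in untreated UKE1 cells. It rose in both lines, with a log2 change of 0.39 ± 0.0612 (1.31-fold, adjusted p = 0.000112) in HEL and 0.63 ± 0.0612 (1.55-fold, adjusted p = 1.33e-06) in UKE1. CTSC, which activates serine proteases of granules, fell in both, with changes of -0.39 (adjusted p = 5.17e-05) in HEL and -0.27 (adjusted p = 0.00116) in UKE1. CTSK, best known as the collagen-degrading protease of osteoclasts, read 6.59, 6.50 and 6.80 in treated UKE1 cells, against 5.82, 5.96 and 5.95 in untreated UKE1 cells. In HEL the values were 6.71, 6.71 and 6.86 in treated HEL cells, against 6.55, 6.66 and 6.48 in untreated HEL cells. CTSK rose in UKE1 and did not pass in HEL, with 0.20 (adjusted p = 0.0786) in HEL and 0.72 (adjusted p = 7.14e-06) in UKE1.

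CTSH, an aminopeptidase, changed in opposite directions in the lines. It read 7.81, 7.69 and 7.91 in treated HEL cells, against 7.24, 7.40 and 7.44 in untreated HEL cells. In UKE1 it read 6.54, 6.78 and 6.61 in treated UKE1 cells, against 7.41, 7.47 and 7.58 in untreated UKE1 cells. The groups did not overlap within either line, and the log2 change was 0.44 ± 0.0846 (1.36-fold, adjusted p = 0.000627) in HEL and -0.85 ± 0.0846 (1.8-fold lower, adjusted p = 1.74e-06) in UKE1. CTSZ, a carboxypeptidase, fell in HEL and did not pass in UKE1, with -0.21 (adjusted p = 0.048) in HEL and 0.15 (adjusted p = 0.137) in UKE1. CTSL and CTSS, cathepsins of protein turnover and antigen processing, passed in neither, with 0.08 (adjusted p = 0.465) in HEL and 0.13 (adjusted p = 0.234) in UKE1 for CTSL and -0.10 (adjusted p = 0.291) in HEL and -0.16 (adjusted p = 0.0799) in UKE1 for CTSS.

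Among the other peptidases, CTSA, the carboxypeptidase that protects beta-galactosidase and NEU1 in a complex, read 11.43, 11.35 and 11.42 in treated HEL cells, against 11.58, 11.64 and 11.65 in untreated HEL cells. In UKE1 CTSA read 9.61, 9.65 and 9.58 in treated UKE1 cells, against 9.43, 9.37 and 9.43 in untreated UKE1 cells. It fell in HEL and rose in UKE1, with log2 changes of -0.23 (adjusted p = 0.00416) in HEL and 0.20 (adjusted p = 0.00818) in UKE1. CTSA therefore differed in direction from NEU1 in HEL. CTSD, the aspartic protease, rose in HEL and did not pass in UKE1, with 0.28 (adjusted p = 0.00199) in HEL and 0.09 (adjusted p = 0.275) in UKE1. TPP1, a tripeptidyl peptidase, rose in UKE1 and did not pass in HEL, with -0.01 (adjusted p = 0.924) in HEL and 0.28 (adjusted p = 6e-04) in UKE1. The acid phosphatase ACP2 had -0.09 (adjusted p = 0.278) in HEL and 0.19 (adjusted p = 0.0199) in UKE1.

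Set beside each other, 14 of the 36 genes rose in both lines (38.9%, where 14% of all genes did) and 4 fell in both, namely ARSB, CLN3, CTSC and NAGLU (11.1%, where 12.9% of all genes did). The risen ones were ASAH1, CTSB, FUCA1, GLA, GM2A, IDS, LAMP2, LIPA, MAN2B1, MCOLN1, NEU1, PPT1, PSAP and SCARB2. CTSH and HEXA rose in HEL and fell in UKE1 (1.49% of all genes did), and CTSA fell in HEL and rose in UKE1 (0.603%). CTSD and GLB1 rose and CTSZ fell in HEL without passing in UKE1 (7.05% and 6.31% of all genes), and ACP2, ARSA, CTSK, SMPD1 and TPP1 rose and GUSB and IDUA fell in UKE1 without passing in HEL (7.34% and 7.9%). CTSL, CTSS, GAA, LAMP1 and SGSH passed in neither line, and 42.3% of all genes passed in neither. The sign of the change was the same in both lines for 28 of the 36 (77.8%, against 67.6% of all genes). Across the 36 genes the changes in HEL and UKE1 had a Pearson r of 0.787, beside 0.65 across all 18417 genes. These are correlations across genes, which are not independent replicates.

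The size of the change was then compared between the lines as an interaction, UKE1 minus HEL. For 17 of the 36 genes it passed, with 8 higher in UKE1 and 9 lower, where 23.9% of all genes passed (10.1% higher and 13.8% lower). With only the 9209 genes at or above the median level tested, 3716 passed, a larger share than over all genes. Most of the 36 lay at that level. CTSH had the largest difference, -1.29 ± 0.12 (2.45-fold lower, adjusted p = 5.62e-06), and NEU1 the largest upward one, 0.76 ± 0.125 (1.69-fold, adjusted p = 0.000605). ARSB fell further in UKE1, with a difference of -0.56 ± 0.0991 (1.47-fold lower, adjusted p = 0.00108). Of the genes that rose in both lines, GLA, LAMP2 and GM2A rose less in UKE1, with differences of -0.45 ± 0.105, -0.34 ± 0.104 and -0.34 ± 0.095 (adjusted p = 0.00686, 0.031 and 0.0179). SCARB2 rose more in UKE1, by 0.28 (adjusted p = 0.0197). FUCA1 and LIPA did not pass, with differences of -0.20 ± 0.107 (adjusted p = 0.214) and 0.04 ± 0.108 (adjusted p = 0.855).

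**Figure D3:**
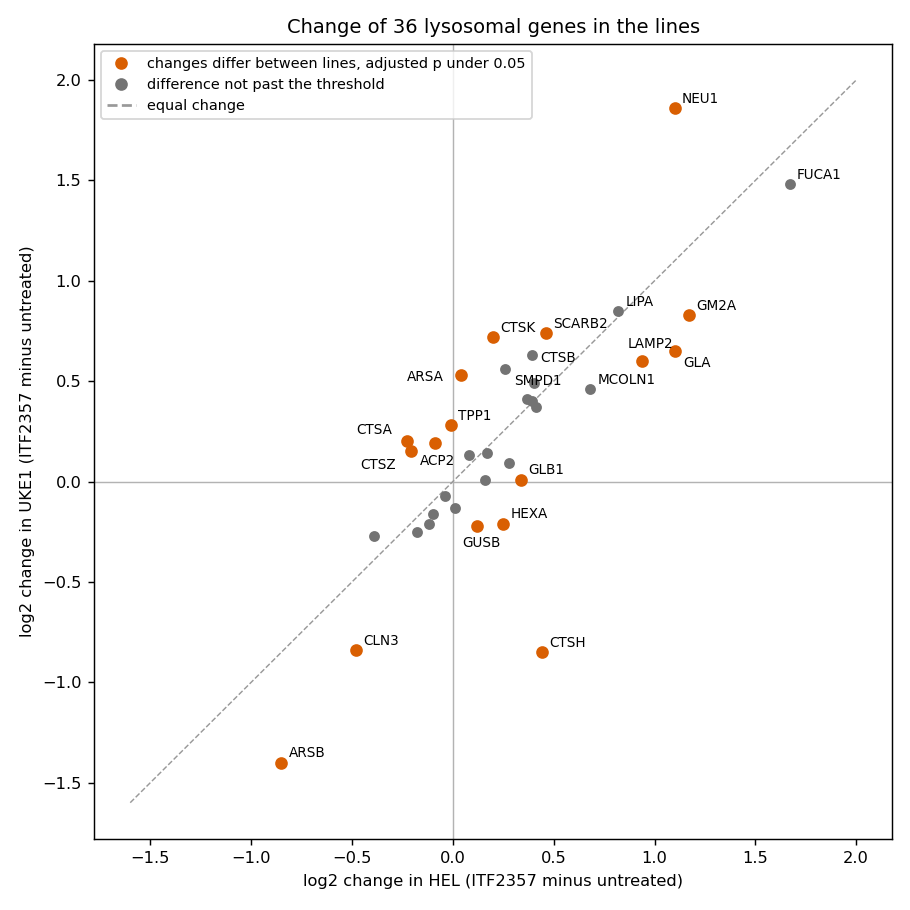
Log2 change with ITF2357 in HEL (x axis) against that in UKE1 (y axis) for the 36 genes, each point a mean over 3 arrays a group, with the dashed line at equal change. Orange points mark the 17 genes whose changes differed between the lines, among them CTSH at lower right (0.44 in HEL, -0.85 in UKE1) and NEU1 at the top (1.10 in HEL, 1.86 in UKE1).

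Several of these calls lay near the threshold. In HEL the falls of CTSZ and NAGLU and the rise of PPT1 were lost without 8, 5 and 2 of the 12 arrays taken out in turn, with adjusted p of up to 0.156, 0.099 and 0.0558. In UKE1 the same held for PPT1, IDUA, ACP2 and GUSB without 8, 5, 3 and 2 arrays, with adjusted p of up to 0.135, 0.123, 0.0785 and 0.1. PPT1 was also lost in HEL and UKE1 with each array centred on its median (adjusted p = 0.0912 and 0.0595). With only the 6 arrays of a line fitted, PPT1 was lost in HEL and UKE1 (adjusted p = 0.0702 and 0.0614) and NAGLU in HEL (adjusted p = 0.0598). Among the differences between lines, those of ACP2, CLN3, LAMP2, CTSZ, GUSB and SCARB2 were lost without 8, 8, 7, 5, 4 and 2 arrays. After quantile normalization the differences of LAMP2, CTSZ, CLN3 and GM2A were lost (adjusted p = 0.0663, 0.0625, 0.0687 and 0.0796), and those of CTSB, MAN2B1 and SMPD1 passed (adjusted p = 0.0203, 0.05 and 0.0489). With each array centred on its median the difference of LAMP2 was lost (adjusted p = 0.0511). That of CTSB passed there too (adjusted p = 0.0297), as it did with only genes at or above the median level (adjusted p = 0.0265) and with an intensity trend in eBayes (adjusted p = 0.0218). LAMP1 and SMPD1 in HEL passed when only genes at or above the median level were tested (adjusted p = 0.0341 and 0.0176) and with an intensity trend in eBayes (adjusted p = 0.0429 and 0.0265).

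The lines also differed before treatment. In untreated UKE1 against untreated HEL cells, 20 of the 36 genes were higher and 12 lower, where 67.7% of all genes differed (33.3% higher and 34.4% lower). At 1.5-fold or more 10 were higher and 8 lower (15.2% and 16.4% of all genes, 31.7% together). The 4 sulfatases were all higher in UKE1, 6 of 10 glycosidases were higher and 2 lower, and 1 of 7 cysteine cathepsins was higher and 5 lower. CTSL, an endopeptidase, read 4.08, 3.94 and 4.18 in untreated UKE1 cells, against 9.26, 9.10 and 9.14 in untreated HEL cells. The UKE1 values lay about the lowest decile of all genes on an array (4.15 to 4.27). The log2 difference was -5.10 (adjusted p = 2.46e-15), but with UKE1 levels so low and no detection calls in the file its size is not a measured fold. CTSZ read 6.05, 6.01 and 6.25 in untreated UKE1 cells, against 9.78, 9.81 and 9.77 in untreated HEL cells. The groups were far apart, with -3.68 ± 0.0779 (12.9-fold lower, adjusted p = 3.14e-14). CTSA was likewise lower, with -2.21 ± 0.0554 (4.64-fold lower, adjusted p = 1.77e-13).

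In the other direction SCARB2 read 8.55, 8.57 and 8.47 in untreated UKE1 cells, against 6.60, 6.64 and 6.57 in untreated HEL cells. It was higher in UKE1 by 1.93 ± 0.0565 (3.81-fold, adjusted p = 9.75e-13). CTSD read 10.69, 10.69 and 10.69 in untreated UKE1 cells, against 9.42, 9.42 and 9.50 in untreated HEL cells. CTSD was higher by 1.24 ± 0.0613 (2.37-fold, adjusted p = 3.02e-10), and GM2A by 1.00 ± 0.0671 (2-fold, adjusted p = 9.14e-09). ASAH1 and NEU1 were lower in untreated UKE1, with -0.99 (adjusted p = 2.66e-09) and -0.89 (adjusted p = 5.78e-07). LAMP1, FUCA1, GUSB and CTSH did not pass, with 0.07 (adjusted p = 0.395), 0.00 (adjusted p = 0.97), -0.11 (adjusted p = 0.187) and 0.13 (adjusted p = 0.204). The call of TPP1, at -0.13 (adjusted p = 0.0462), was lost without 11 of the 12 arrays taken out in turn, and those of SMPD1, MAN2B1 and IDUA without 4, 3 and 3.

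With ITF2357 in both lines, 19 of the 36 genes were higher in UKE1 and 11 lower, where 68% of all genes differed (34% higher and 34% lower). NEU1, which was lower in untreated UKE1, had a difference of -0.13 (adjusted p = 0.191) between the treated lines. ARSB, which was higher in untreated UKE1 by 0.74, differed by 0.18 (adjusted p = 0.0349) with the drug, and that call was lost without 4 of the 12 arrays (adjusted p up to 0.155). CTSH, for which the untreated lines did not pass, read 6.54, 6.78 and 6.61 in treated UKE1 cells, against 7.81, 7.69 and 7.91 in treated HEL cells. The treated lines were apart, with a difference of -1.16 ± 0.0846 (2.24-fold lower, adjusted p = 2.33e-08). CTSB stood at 10.04 in both treated lines (adjusted p = 0.975), and after quantile normalization it differed by 0.16 (adjusted p = 0.0373). CTSL, CTSZ, CTSA and SCARB2 differed between the treated lines by -5.05, -3.33, -1.79 and 2.21. For CTSZ, CTSA and SCARB2 that difference had itself changed with the drug, by 0.36 (adjusted p = 0.0308), 0.43 (adjusted p = 0.00134) and 0.28 (adjusted p = 0.0197), and for CTSL the test did not pass, with 0.05 (adjusted p = 0.825).

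**Figure D4:**
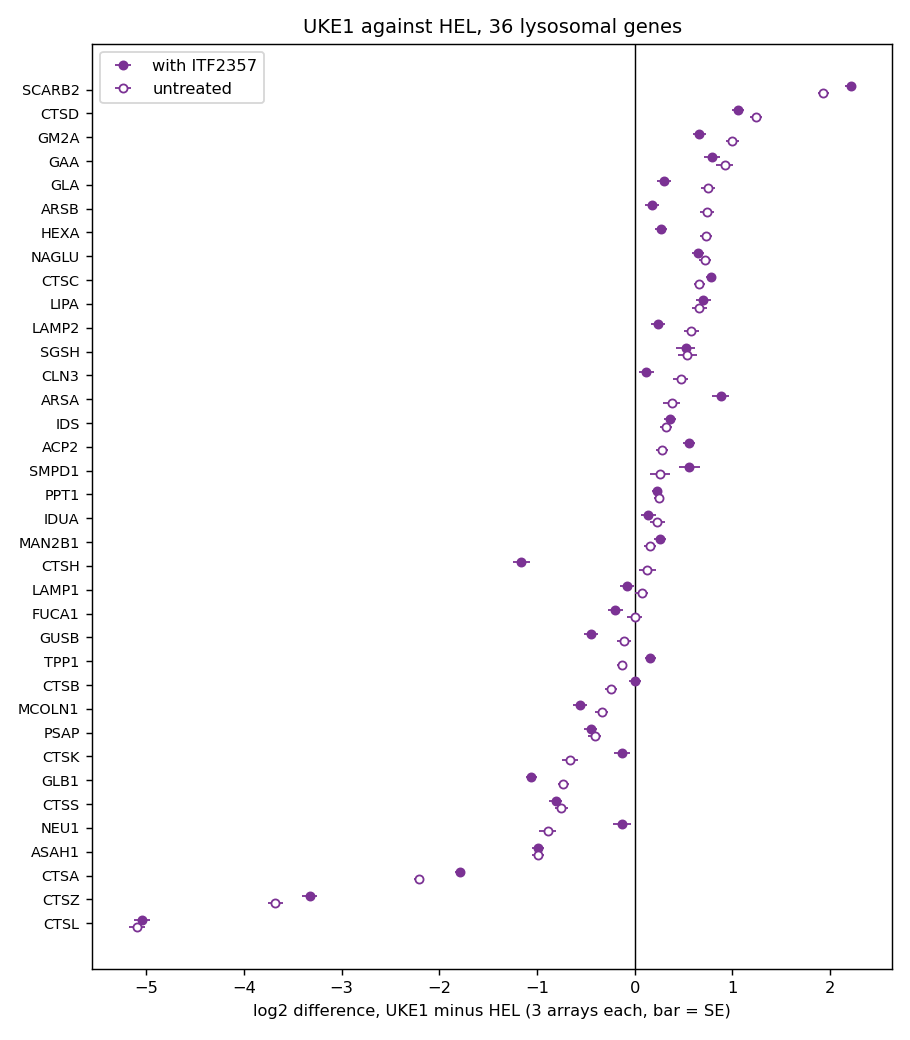
Log2 difference UKE1 minus HEL (x axis, bars are SE, 3 arrays a group) for each of the 36 genes, with ITF2357 (filled) and untreated (open), sorted by the untreated difference. CTSL (-5.05 with ITF2357 and -5.10 untreated) and CTSZ (-3.33 and -3.68) lie far to the left, where the UKE1 levels of CTSL are near the lowest decile of the arrays and its distance is no measured size. SCARB2 (2.21 and 1.93) lies to the right, and CTSH is apart with the drug (-1.16) and not without it (0.13).

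Markers of other blood lineages were read in the same contrasts. The 11 measured monocyte and macrophage markers had a mean level per array of 7.11 to 7.22 in untreated UKE1 and 6.22 to 6.34 in untreated HEL cells, with 4 higher and 3 lower in UKE1. Among them CSF1R had 10.21 in untreated UKE1 and 5.76 in untreated HEL cells, while CD14 had 5.72 and 5.81 and MSR1 3.26 and 3.22 in the same order. The 9 lymphocyte markers had 7.43 to 7.48 in UKE1 and 5.44 to 5.55 in HEL, with 6 higher and 2 lower. The calls made 63.6% of the monocyte list and 88.9% of the lymphocyte list, where 67.7% of all genes differed between the untreated lines. CD3G, of the T cell receptor complex, had 9.92 in untreated UKE1 and 4.16 in untreated HEL cells, and MS4A1, of B cells, had 4.08 and 3.93. With ITF2357, 1 monocyte marker (CD68) rose in HEL and none fell, and 3 rose and 4 fell in UKE1. CD68 is also on the list of further lysosomal membrane proteins given below. Of 9 megakaryocyte markers, 5 fell in HEL and 7 in UKE1, and none rose. Of the 9 lymphocyte markers 2 fell in HEL and 5 in UKE1, of 7 granulocyte markers 1 and 3 in the same order of lines, and none of either list rose. Of 7 erythroid markers 1 rose and 2 fell in HEL and 1 fell in UKE1, and of 9 stromal markers 2 rose and 2 fell in HEL and 1 rose and 3 fell in UKE1. Over all genes 42.4% were called in HEL and 44.3% in UKE1. The part of these markers in the lysosomal differences was not tested.

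Other genes of the pathway were read from further lists. The shares of all genes set beside them include many genes of low level. With only the 9209 genes at or above the median level tested, 6377 changed in HEL and 6398 in UKE1, a larger share. Of 20 measured further hydrolases, 12 rose and 4 fell in each line (80% called in each, where 42.4% of all genes were in HEL and 44.3% in UKE1). Of the 20, 11 rose in both lines, where 14% of all genes did. PLA2G15, the lysosomal phospholipase A2, changed by 1.25 in HEL (adjusted p = 3.34e-09) and 1.33 in UKE1 (adjusted p = 1.57e-09). SIAE, a sialic acid esterase, changed by 1.18 in HEL (adjusted p = 3.75e-09) and 0.88 in UKE1 (adjusted p = 3.13e-08). HGSNAT, which acetylates heparan sulfate for its breakdown, fell, with -0.58 in HEL (adjusted p = 1.48e-05) and -1.25 in UKE1 (adjusted p = 1.17e-08). LGMN, the asparaginyl endopeptidase that processes cathepsins, rose in HEL and fell in UKE1, with 1.06 in HEL (adjusted p = 1.34e-06) and -0.28 in UKE1 (adjusted p = 0.0378). Of 30 further membrane proteins, 13 rose and 5 fell in HEL (60%), and 16 rose and 5 fell in UKE1 (70%). SLC17A5, the sialic acid exporter, changed by 1.49 in HEL (adjusted p = 1.29e-07) and 0.51 in UKE1 (adjusted p = 0.00176). NPC1, which moves cholesterol out of the lysosome, changed by 0.75 in HEL (adjusted p = 7.36e-07) and 1.08 in UKE1 (adjusted p = 2.23e-08). TMEM192 fell, with -1.18 in HEL (adjusted p = 2.93e-08) and -0.82 in UKE1 (adjusted p = 6.75e-07).

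The proton pump, or V-ATPase, acidifies the lysosome. Of its 21 measured genes 13 rose and 1 fell in HEL (66.7%), and 12 rose and none fell in UKE1 (57.1%), with 11 risen in both. Over all genes 42.4% were called in HEL and 44.3% in UKE1, and 14% rose in both. With only genes at or above the median level tested, the share called was larger in each line. The catalytic subunit gene ATP6V1A changed by 1.01 in HEL (adjusted p = 8.2e-09) and 0.90 in UKE1 (adjusted p = 1.61e-08). ATP6V0A1, of the membrane sector, changed by 0.59 in HEL (adjusted p = 2.02e-06) and 1.13 in UKE1 (adjusted p = 5.18e-09). The gene that fell in HEL was ATP6V0D2, with -0.75 in HEL (adjusted p = 1.12e-05) and 0.09 in UKE1 (adjusted p = 0.457). The median log2 change over the 21 genes was 0.32 in HEL and 0.25 in UKE1, beside 0.34 and 0.30 for the further hydrolases and 0.16 and 0.23 for the further membrane proteins in the same order of lines.

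Of 17 genes that tag and sort lysosomal enzymes, 6 rose and 3 fell in each line (52.9%). IGF2R, a mannose 6-phosphate receptor, changed by 1.38 in HEL (adjusted p = 2.84e-09) and 0.83 in UKE1 (adjusted p = 1.79e-07). GGA2, an adaptor of that receptor's transport, rose in HEL and did not pass in UKE1, with 0.81 in HEL (adjusted p = 7.47e-08) and 0.00 in UKE1 (adjusted p = 0.987), and the difference between lines was -0.81 (adjusted p = 1.01e-05). Of 18 genes of the MiT factors and their control by mTORC1, 7 rose and 3 fell in HEL (55.6%, where 42.4% of all genes were called), and 5 rose and 2 fell in UKE1 (38.9%, where 44.3% were). MITF rose in HEL and did not pass in UKE1, with 0.90 in HEL (adjusted p = 6.94e-07) and 0.19 in UKE1 (adjusted p = 0.0699). TFEC, its relative, fell in UKE1 and did not pass in HEL, with -0.23 in HEL (adjusted p = 0.128) and -1.15 in UKE1 (adjusted p = 1.4e-06). TFEB and TFE3 were picked out after their values were seen, and TFEB rose in HEL and did not pass in UKE1, with 0.35 in HEL (adjusted p = 0.0064) and 0.22 in UKE1 (adjusted p = 0.0673). TFE3 passed in neither line, with 0.14 in HEL (adjusted p = 0.189) and 0.13 in UKE1 (adjusted p = 0.213). ZKSCAN3, described as a repressor of lysosomal genes, rose, with 0.95 in HEL (adjusted p = 1.56e-06) and 0.54 in UKE1 (adjusted p = 0.000276). Of 9 cathepsin inhibitors 2 rose and none fell in each line (22.2%), CSTB (cystatin B) by 0.27 in HEL (adjusted p = 0.00282) and 0.58 in UKE1 (adjusted p = 3.31e-06) and SERPINB1 by 0.32 in HEL (adjusted p = 0.00248) and 0.22 in UKE1 (adjusted p = 0.0227).

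**Figure D5:**
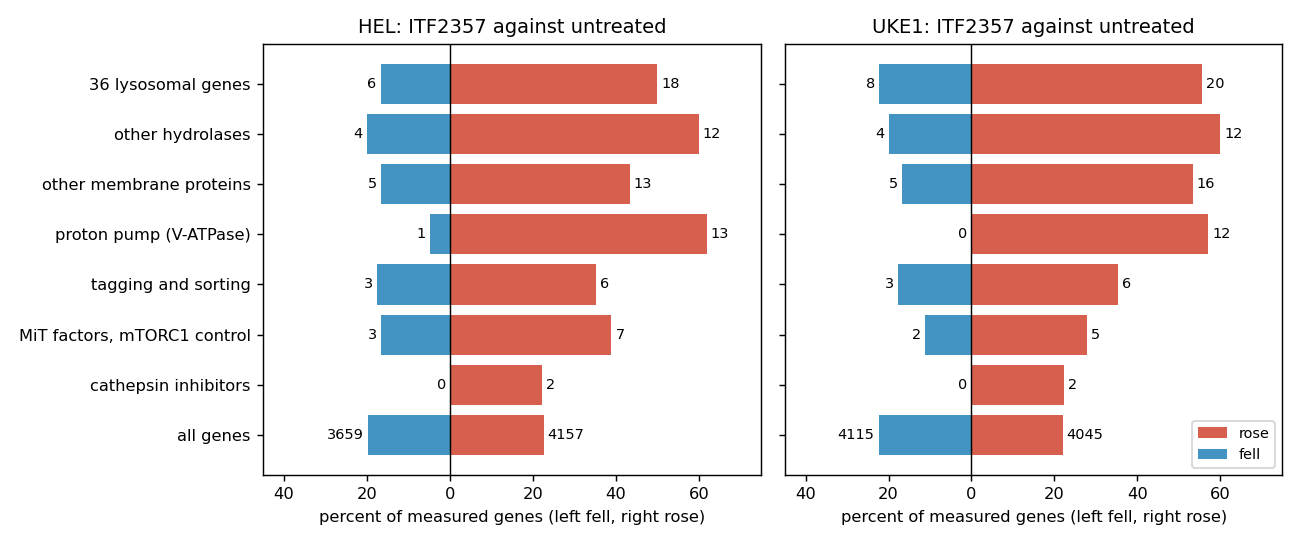
Percent of measured genes that rose (red, to the right) or fell (blue, to the left) with ITF2357 in HEL and UKE1 (adjusted p under 0.05), for the 36 genes, the further lysosomal lists and all 18417 genes, with the number of genes beside each bar. The bar for risen genes is longer than that of all genes (4157 in HEL, 4045 in UKE1) for the 36 genes. The same holds for every further list but the cathepsin inhibitors, from the V-ATPase (13 in HEL, 12 in UKE1) to the MiT factors (7 in HEL, 5 in UKE1). For the cathepsin inhibitors (2 in each line) it is about the same as for all genes.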

How the data were processed

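Gene expression was measured on 12 Affymetrix Gene 1.0 ST arrays, 3 for each of 4 groups formed from the labels. The authors ran RMA in Expression Console, per the submitters' processing notes. The versions stand in no source used here. The deposited values were taken as log2 because they run between 1.26 and 14.36. No label gives the base, and the array medians were 6.41 to 6.50. No detection flag or depth is given, so the number of arrays limits the precision.

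Of 33297 rows, GEO's platform annotation gave 1 symbol to 19460, several to 1754 and listed none for 12083. Rows with 1 symbol were kept, and of 769 genes on several rows the one brightest on average was used, leaving 18417 genes. Names were checked against RefSeq (GRCh38.p14), where 19429 rows matched and no symbol changed. Promoter windows came from RefSeq as well.

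Group means were fitted over the 12 arrays in limma 3.58.1 under R 4.3.3 (functions lmFit and eBayes, 8 residual degrees of freedom, two-sided tests, Benjamini-Hochberg adjustment over all 18417 genes, threshold 0.05). It was tested on simulated arrays. Any of the 36 genes may be named. Of each further list, up to 4 genes with the smallest adjusted p in HEL, in UKE1 and for the difference may be named, and TFEB, TFE3 and the members of small counts were named after their values were seen. The genes and lists were chosen with earlier results of these data known. Alternatives were other normalizations, a filter on low genes, other rows per gene, an intensity trend in eBayes, a replicate block and leaving out each array. Further ones were robust eBayes and fits of only the 6 arrays compared.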

Additional observations from a re-analysis of the deposited data

Results flagged for a closer look

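The response to ITF2357 differed between the lines, by limma's test of the difference itself, for 17 of the 36 genes (47.2%), where 23.9% of all genes passed. Among the 9209 genes at or above the median level, where most of the 36 lay, 3716 passed when tested alone. Over the whole further lists it did so for 5 of 20 hydrolases (25%), 8 of 30 membrane proteins (26.7%), 4 of 21 V-ATPase genes (19%), 6 of 17 sorting genes (35.3%), 6 of 18 genes of the MiT factors and mTORC1 (33.3%) and 1 of 9 cathepsin inhibitors (11.1%). The genes of those lists given below were picked in part for a small p of this difference, so their number says nothing about the lists. The values are the log2 change in UKE1 minus that in HEL. Among the 36 genes the positive differences were 0.76 for NEU1, 0.52 for CTSK, 0.50 for ARSA, 0.43 for CTSA, 0.36 for CTSZ, 0.29 for TPP1, 0.28 for SCARB2 and 0.28 for ACP2. The negative ones were -1.29 for CTSH, -0.56 for ARSB, -0.46 for HEXA, -0.45 for GLA, -0.35 for CLN3, -0.34 for LAMP2, -0.34 for GUSB, -0.34 for GM2A and -0.33 for GLB1. CTSH and HEXA fell in UKE1 and rose in HEL, and CTSA rose in UKE1 and fell in HEL. Among the further genes the positive differences were 0.84 for ATP6V0D2, 0.70 for TPCN1, 0.67 for LAMTOR3, 0.56 for ARSG, 0.55 for ATP6V0A1, 0.52 for CLN8, 0.37 for TMEM192, 0.34 for NPC1 and 0.31 for CSTB. The negative ones were -1.34 for LGMN, -0.99 for SLC17A5, -0.92 for TFEC, -0.81 for GGA2, -0.71 for MITF, -0.67 for HGSNAT, -0.59 for RRAGD, -0.55 for IGF2R, -0.46 for LAPTM4A, -0.44 for SUMF2, -0.41 for ZKSCAN3, -0.38 for ATP6V0B, -0.31 for PIP4P2, -0.30 for SIAE and -0.26 for ATP6V0E1. LGMN was the one of these that passed in both lines in opposite directions, with -0.28 in UKE1 and 1.06 in HEL.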

How the results depend on the processing

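Every drug change of the 36 genes that passed kept its direction under all alternatives run. Of the 24 calls in HEL, 21 also stayed past the threshold in each alternative that gave a value, as did 24 of 28 in UKE1 and 10 of 17 differences between lines. ARSA, CTSK, CTSL, GAA, IDUA and SGSH lay below the median level and so had no value under that filter, which touches the kept UKE1 and difference calls of ARSA and CTSK. Without single arrays the number of the 36 genes called ranged from 21 to 25 in HEL, 25 to 28 in UKE1, 12 to 16 for the difference, 28 to 32 between untreated lines and 27 to 31 between treated lines. Calls lost when 1 array was left out are given next, each array by its group and replicate number and taken out alone. The call in HEL was lost for CTSZ without treated HEL 1, 2 and 3, untreated HEL 1, 2 and 3, treated UKE1 3, untreated UKE1 1 (adjusted p 0.0554 to 0.156), for NAGLU without treated HEL 1, 2 and 3, untreated HEL 1 and 2 (adjusted p 0.0548 to 0.099). It was lost for PPT1 without treated HEL 3, untreated HEL 2 (adjusted p 0.051 to 0.0558). That in UKE1 was lost for ACP2 without treated UKE1 1 and 2, untreated UKE1 2 (adjusted p 0.0675 to 0.0785), for GUSB without treated UKE1 1, untreated UKE1 1 (adjusted p 0.0588 to 0.1). It was lost for IDUA without treated HEL 1, treated UKE1 2 and 3, untreated UKE1 1 and 2 (adjusted p 0.0534 to 0.123), for PPT1 without treated HEL 1, untreated HEL 2, treated UKE1 1, 2 and 3, untreated UKE1 1, 2 and 3 (adjusted p 0.0504 to 0.135). The difference between drug changes was lost for ACP2 without treated HEL 2 and 3, untreated HEL 2 and 3, treated UKE1 1 and 2, untreated UKE1 1 and 2 (adjusted p 0.0559 to 0.077), for CLN3 without treated HEL 1 and 3, untreated HEL 1, 2 and 3, treated UKE1 3, untreated UKE1 1 and 3 (adjusted p 0.05 to 0.0846). It was lost for CTSZ without treated HEL 1, untreated HEL 2, treated UKE1 1, untreated UKE1 1 and 2 (adjusted p 0.061 to 0.0789), for GUSB without treated HEL 3, untreated HEL 3, treated UKE1 1, untreated UKE1 1 (adjusted p 0.0502 to 0.0542). It was lost for LAMP2 without treated HEL 1 and 2, untreated HEL 3, treated UKE1 1 and 2, untreated UKE1 1 and 2 (adjusted p 0.0544 to 0.0746), for SCARB2 without treated HEL 1, untreated UKE1 3 (adjusted p 0.0514 to 0.054). The difference between untreated lines was lost for IDUA without untreated HEL 1 and 3, untreated UKE1 1 (adjusted p 0.0642 to 0.0781), for MAN2B1 without untreated HEL 3, untreated UKE1 1 and 2 (adjusted p 0.0502 to 0.0996). It was lost for SMPD1 without untreated HEL 3, treated UKE1 3, untreated UKE1 1 and 2 (adjusted p 0.0517 to 0.183), for TPP1 without treated HEL 1 and 2, untreated HEL 1, 2 and 3, treated UKE1 1, 2 and 3, untreated UKE1 1, 2 and 3 (adjusted p 0.0521 to 0.129). That between treated lines was lost for ARSB without treated HEL 1 and 2, treated UKE1 1 and 2 (adjusted p 0.0782 to 0.155), for FUCA1 without treated HEL 1 and 3, treated UKE1 3 (adjusted p 0.0846 to 0.139). It was lost for TPP1 without treated HEL 1 (adjusted p 0.0631). With only genes at or above the median level, which leaves 9209 genes to test, the count of all genes called was 7382 between untreated lines (12471 without that filter) and 7296 between treated lines (12525). With quantile normalization CTSB differed between the treated lines by 0.16 (adjusted p = 0.0373), against 0.00 (adjusted p = 0.975) as reported. The cause was not tested. In HEL, 44% of the calls over all genes were upward when each array was centred on its median, against 53.2% as reported. Deviations of treated and untreated arrays with the same replicate number correlated at -0.0877, 0.0645 and 0.0337 in HEL and at 0.0302, 0.0338 and 0.0348 in UKE1, so the numbers do not pair the samples by the rule of 0.1 used here. In UKE1 each treated array correlated best with its own number, in HEL not. With the replicate block the calls among the 36 genes were 23 in HEL (CTSZ lost, adjusted p = 0.0636), 25 in UKE1 (ACP2, IDUA and PPT1 lost) and 13 for the difference (ACP2, CLN3, GUSB and SCARB2 lost).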

Other observations

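NEU1 and IDS were each measured by more than 1 row of a single symbol. The other 2 NEU1 rows had log2 changes with ITF2357 of 1.07 in HEL and 1.87 in UKE1 each, beside 1.10 and 1.86 on the row used. The other IDS row had 0.26 in HEL and 0.22 in UKE1, beside 0.37 and 0.41 on the row used.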
